A study of Mus musculus with 4 samples.

Results

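The genes described here store, take up, export and sense iron. They were the ferritin heavy chain Fth1, the ferritin light chain Ftl1, the ferritin-like gene Fthl17a, the transferrin receptor Tfrc, the iron transporter Slc11a2, the iron exporter Slc40a1, the heme oxygenase Hmox1, the regulators Aco1 and Ireb2, and the ferritin receptor Ncoa4. A probe set (a group of short probes read as 1 value) was included when its only gene symbol in the platform annotation was one of these 10 genes. This gave 22 of the 45101 probe sets on the array, and they covered 9 of the 10 genes. No probe set carried Ftl1 alone. The genes were chosen by function with earlier results of this comparison in view, among them the high value of Fthl17a on the Npac arrays. Their values are therefore given as a description, and no p-value is given for any of them.

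The cells were E14, an established line of mouse embryonic stem cells, and their RNA was measured on 4 Affymetrix arrays. Control RNAi cells gave 2 arrays and Npac RNAi cells gave 2. Npac, now named Glyr1, is a nucleosome-binding chromatin protein. All cells were kept in 15% serum with 1000 units per ml of LIF, a cytokine that holds them undifferentiated, and were harvested after 3 days of puromycin selection that began 24 hours after transfection of a short hairpin RNA. The sources used here do not describe the control hairpin or state whether replicates were separate cultures, so the spread between the 2 arrays of a group may be technical. The depletion was partial: Glyr1 read 11.30 and 11.32 on the control arrays and 10.23 and 10.20 on the Npac arrays, which left 46.9% of the control level.

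Cells keep iron available but harmless by balancing 4 activities. Transferrin-bound iron enters through Tfrc and leaves the endosome through Slc11a2, excess iron is oxidised and stored inside ferritin shells built of heavy and light chains, Ncoa4 carries ferritin to the lysosome when iron is needed, and Slc40a1 (ferroportin) is the exporter. The RNA-binding proteins IRP1 (encoded by Aco1) and IRP2 (encoded by Ireb2) bind iron responsive elements when iron is scarce, which blocks ferritin translation and stabilises Tfrc mRNA. The arrays read mRNA only and hold no measure of iron, of translation or of protein.

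The ferritin, export and heme oxygenase genes were higher in Npac RNAi cells, the transferrin receptor was slightly lower, and the mRNAs of both IRPs differed little in their brightest probe sets. Fthl17a was 6.25-fold, Slc40a1 3.77-fold, Hmox1 2.55-fold, Fth1 1.63-fold and Ncoa4 1.48-fold the control level, while Tfrc stood at 85.4% of it (each gene by its brightest probe set, n = 2 arrays per group). By limma's test at an adjusted p under 0.05 across all 18193 genes, 5 of the 9 measured genes were called higher and 1 lower, where 22.1% of all genes were called higher and 18.7% lower. Called and at least 1.5-fold higher were 4 of the 9, against 8.09% of all genes. The Npac arrays lay above the control arrays without overlap in 6 of the 9 genes and below them in 1, against 34.1% and 40.1% of all genes. Of the 19 probe sets in a fit over all probe sets, 9 were called higher and 2 lower, where 14.2% and 14% of all were. Without overlap, 12 of the 19 were above and 3 below, against 28% and 41.1%. These shares are the background of the whole array, and since the genes were picked with the comparison known, nothing is read from the contrast. In a fit of genes at or above the median level, 5 of the 9 were higher and 1 lower, beside 42.1% and 26.5% of all. The median log2 difference was 0.57 over the 9 genes and -0.04 over all genes.

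**Figure D1:**
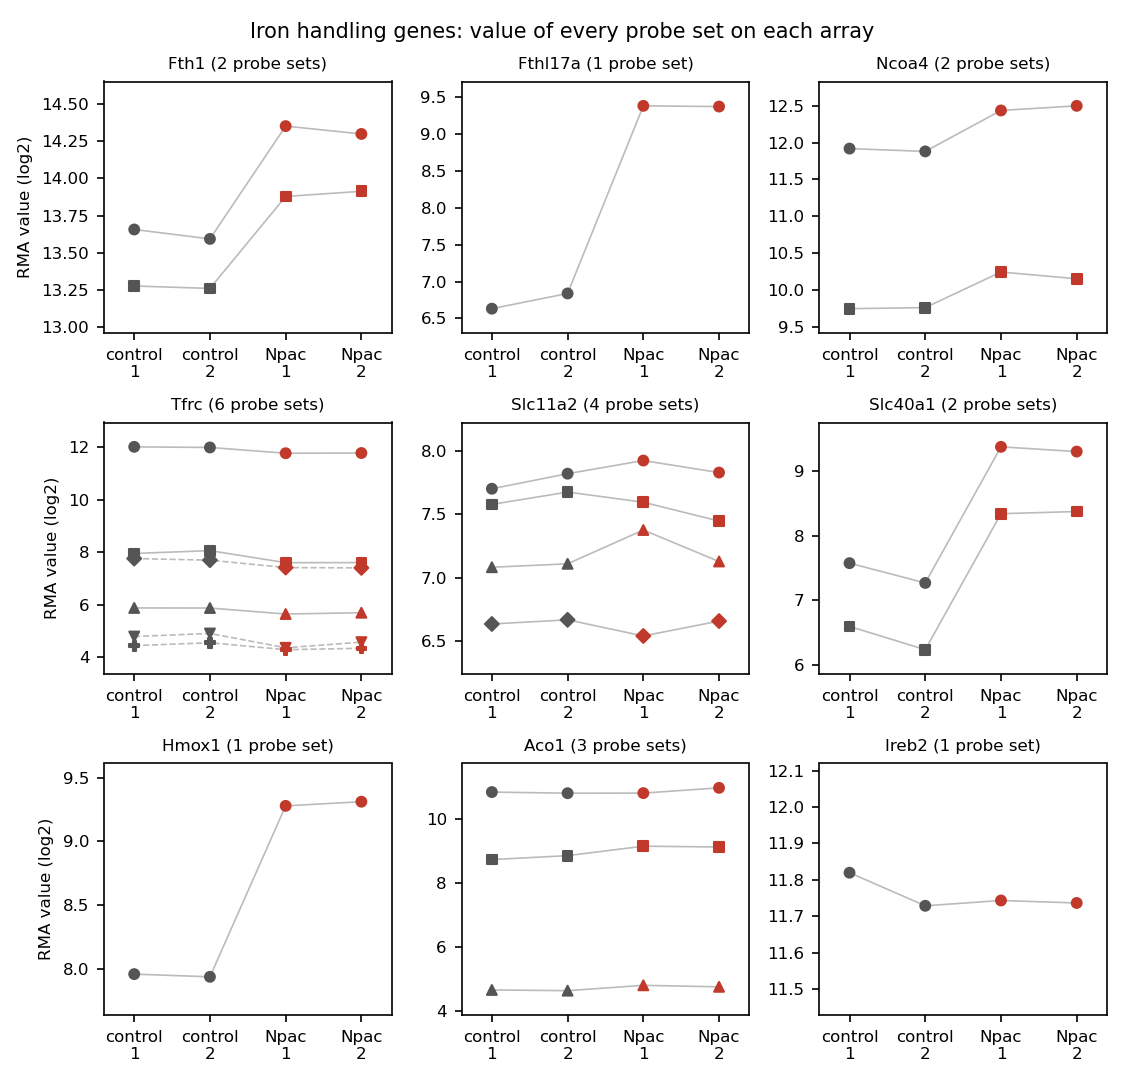
The RMA value (log2) of every probe set of each gene is plotted on the 2 control RNAi arrays (grey) and the 2 Npac RNAi arrays (red), with 1 line per probe set and a separate axis per gene. Dashed lines are the manufacturer's Tfrc control sets. Fthl17a, Slc40a1, Hmox1, Fth1 and Ncoa4 lie higher on both Npac arrays in each of their probe sets, and Tfrc lies lower in all 6.

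Scale matters for the smaller differences. The poly-A controls (bacterial RNAs spiked into each sample ahead of labelling) read higher on the Npac arrays in 24 of 24 probe sets, and scaling on them moves every log2 difference by -0.54. Under that scaling Fthl17a (2.10), Slc40a1 (1.37) and Hmox1 (0.81) still had positive log2 differences and calls, Fth1 (0.16) and Ncoa4 (0.03) lost theirs, and Tfrc was at -0.77. Slc11a2 (-0.42), Ireb2 (-0.57) and Aco1 (-0.47) were then called lower along with Tfrc, so that the 9 genes gave 3 higher and 4 lower, where 4.98% of all genes were called higher and 81.9% lower. Centring the arrays on the median gene moves every difference by -0.14, and the same 5 genes remained above 0. The values below are the deposited ones, relative to the bulk of transcripts.

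**Figure D2:**
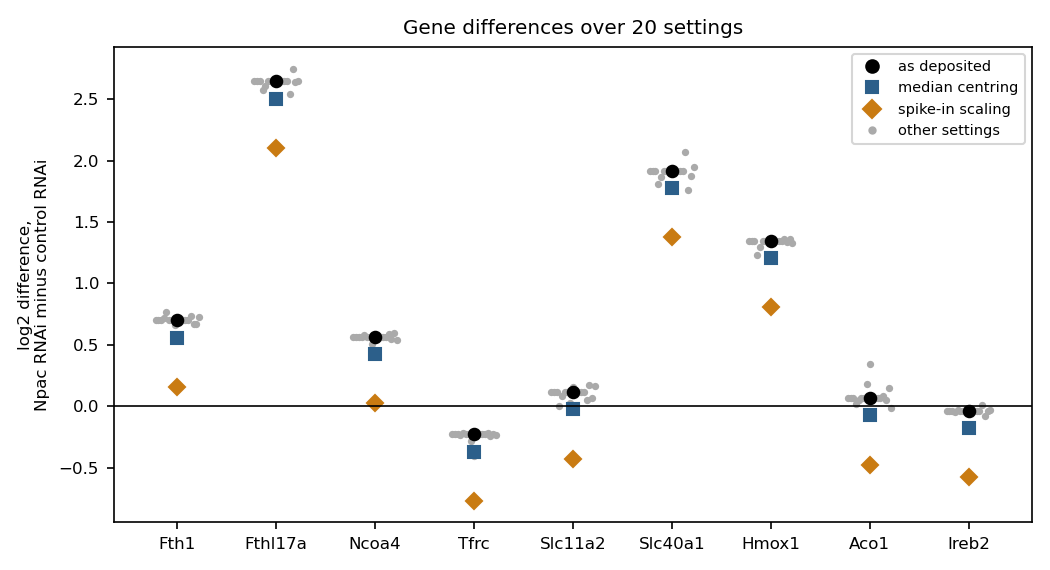
The log2 difference (Npac RNAi minus control RNAi) of each gene is plotted for the deposited values (black), median centring (blue), spike-in scaling (orange) and the other settings (grey), 20 in all. Fthl17a, Slc40a1 and Hmox1 stay clear of 0 throughout, Fth1 and Ncoa4 approach 0 under spike-in scaling only, and Slc11a2, Aco1 and Ireb2 lie on both sides of it.

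Ferritin heavy chain, the subunit with the ferroxidase site that oxidises iron on entry, was read by 2 probe sets. The brighter one stood at 13.66 and 13.59 on the control arrays and at 14.35 and 14.30 on the Npac arrays, a log2 difference of 0.70 (SE 0.053). The second gave 13.28 and 13.26 in control RNAi and 13.88 and 13.91 in Npac RNAi (0.63, SE 0.0562 in the fit over all probe sets). Both Npac arrays were above both control arrays in each probe set, by at least 0.60 between the nearest arrays. Fth1 thus went from 13.62 ± 0.0449 to 14.33 ± 0.0373 (mean ± SD, n = 2), and both probe sets gave a like difference.

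Ferritin light chain, which favours formation of the iron core, has processed pseudogenes, and its 3 probe sets carry further symbols. They cannot be assigned to Ftl1 alone and are outside the 22. The 2 sets annotated jointly to Ftl1 and Ftl1-ps2 read 14.02 and 14.12 against 14.45 and 14.48, and 14.02 and 14.04 against 14.29 and 14.36, control arrays first. These are log2 differences of 0.39 (SE 0.0658) and 0.30 (SE 0.0593), and the set that also carries 3 Mir692 symbols gave 0.18 (SE 0.0674). The first 2 sets were higher on both Npac arrays by less than Fth1 was, though the gap to Fth1 was not tested, and their calls were lost without any 1 array. All 3 were below 0 with spike-in scaling (-0.15, -0.24 and -0.36).

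Fthl17a is an X-linked relative of the heavy chain gene and showed the largest difference of the 9. Its single probe set read 6.63 and 6.84 on the control arrays and 9.39 and 9.38 on the Npac arrays (log2 difference 2.64, SE 0.0838). The Npac arrays almost coincided, and the lowest of them lay 2.54 above the highest control array. Leaving out 1 array at a time gave 2.54 to 2.75. The other Fthl17 genes lie together elsewhere on the X chromosome, and 1 probe set carries Fthl17b, Fthl17c, Fthl17d, Fthl17e and the pseudogene Fthl17-ps1. It went the other way, from 11.36 and 11.35 to 11.10 and 11.12 (-0.25, SE 0.0551), or 84.2% of the control level. That probe set was called lower on the deposited values, where 14% of all probe sets were called lower, but not without any 1 of the 4 arrays (-0.26 to -0.24). The opposite signs were thus seen within one gene family, and probes of either set may also bind transcripts of close relatives.

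The sequences upstream of these family members are shown because the probe sets went in opposite directions. Each is the 250 bases before the annotated start, 5′ to 3′ on the gene's strand, from RefSeq on GRCm38.p6, with the TATAA nearest the start in capitals. Fthl17a lies at chrX:85249427-85249676 on the plus strand, Fthl17b at chrX:8962976-8963225 on the minus strand and Fthl17e at chrX:9033236-9033485 on the plus strand.
Fthl17a: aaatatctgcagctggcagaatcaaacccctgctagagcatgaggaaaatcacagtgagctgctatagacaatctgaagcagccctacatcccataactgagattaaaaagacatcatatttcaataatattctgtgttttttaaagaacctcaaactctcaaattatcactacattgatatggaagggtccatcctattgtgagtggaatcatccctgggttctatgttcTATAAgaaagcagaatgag
Fthl17b: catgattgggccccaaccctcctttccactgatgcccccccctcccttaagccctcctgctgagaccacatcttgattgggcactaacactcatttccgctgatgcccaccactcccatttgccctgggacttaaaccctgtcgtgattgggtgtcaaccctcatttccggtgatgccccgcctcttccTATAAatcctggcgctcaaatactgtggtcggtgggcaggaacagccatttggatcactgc
Fthl17e: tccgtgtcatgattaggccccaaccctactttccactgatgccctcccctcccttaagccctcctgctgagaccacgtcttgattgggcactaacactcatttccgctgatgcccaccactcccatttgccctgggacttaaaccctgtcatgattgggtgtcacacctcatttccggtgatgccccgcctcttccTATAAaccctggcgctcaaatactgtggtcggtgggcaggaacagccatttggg
The capitals begin 19 bases before the annotated start in Fthl17a, 61 in Fthl17b and 54 in Fthl17e. Over the 120 bases before this TATAA, the 10 pairs among Fthl17b to Fthl17f were 96.7% to 100% identical in a global alignment. Fthl17a matched each of these 5 genes at 48.9% to 50.7%. The identity that unrelated stretches reach in such an alignment was not computed, so no likeness is read from these values. Whether the TATAA of Fthl17a corresponds to that of the others was not tested. TATAA was searched on the gene's strand after the sequences had been read. Of 32851 RefSeq windows of 300 bases (250 before to 50 after a start), 17.5% hold it. A shared or absent stretch is a description of these windows and was not tied to the expression values by any test.

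By the distance between gene-centred log2 values over the 4 arrays, the 3 genes nearest to Fthl17a among those at or above the median level were Ascl2, Igf2 and Rhox9. Their root mean square distances were 0.0473, 0.0689 and 0.0725. Ascl2, a placental transcription factor, read 7.66 and 7.75 in control RNAi and 10.38 and 10.40 in Npac RNAi. Igf2, a fetal growth factor, read 10.78 and 10.83 against 13.53 and 13.51. Rhox9, a homeobox gene of the X chromosome, read 8.48 and 8.50 against 11.08 and 11.10. With 4 arrays in 2 groups, likeness amounts to a like step between the groups and similar replicate scatter.

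Ncoa4, the receptor that delivers ferritin to the lysosome for iron release, was higher in both probe sets. The brighter read 11.92 and 11.88 on the control arrays and 12.44 and 12.50 on the Npac arrays (0.57, SE 0.0514). The other read 9.75 and 9.76 against 10.24 and 10.15 (0.44, SE 0.0627), and no Npac array overlapped a control array in either. Spike-in scaling took these differences to 0.03 and -0.10. Of the other genes listed for ferritin turnover and iron chaperones, Herc2 (0.25, SE 0.0593), Tax1bp1 (0.17, SE 0.0457) and the iron chaperone gene Pcbp1 (0.17) were called higher by small steps, and Pcbp2 was at -0.03 (both Pcbp genes are named after their values were seen). With any 1 array left out, Ncoa4 was the only one of these 5 genes with a call in the fit over genes. In the fit over all probe sets the second set lost its call without any 1 array, and the brighter set kept its call only without Npac array 1.

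Of the 7 genes with a RefSeq promoter window (Fthl17a, Fth1, Ftl1, Tfrc, Ireb2, Aco1 and Ncoa4), 1 held the antioxidant response element TGACNNNGC, searched on both strands. This was Ncoa4, in a window for one of its 3 annotated starts, and 30 bases at chr14:32165735-32165764 (plus strand, GRCm38.p6) are shown with the match in capitals, since the heavy chain and heme oxygenase genes are textbook targets of Nrf2, the factor that binds this element.
Ncoa4: aggcggggcgTGACCTGGCcggtagggtat
The match begins 44 bases before that start, and 12.4% of all windows hold one on either strand. CACGTG (both strands, in 7.15% of windows) and the core of the iron responsive element (the gene's strand, in 10.5%) had no match in the 11 windows of these 7 genes. That says only that these letters are not within the windows.

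The transferrin receptor Tfrc imports transferrin-bound iron and was read by 6 probe sets, 3 of them the manufacturer's control sets for its 5′, middle and 3′ parts, which were kept out of the fit. All 6 were lower on both Npac arrays than on both control arrays. The brightest read 12.01 and 11.98 in control RNAi and 11.76 and 11.77 in Npac RNAi (-0.23, SE 0.0457). The next read 7.95 and 8.06 against 7.60 and 7.60 (-0.40, SE 0.0654), and the dimmest of the 3 fitted sets 5.87 and 5.87 against 5.64 and 5.69 (-0.21, SE 0.0571). The control sets gave -0.32 for the 3′ part, -0.38 for the middle and -0.18 for the 5′ part. The middle and 5′ sets were dim, with means of 4.65 and 4.40 below the 25th percentile of all genes (5.51), and 41.1% of all probe sets were lower on the Npac arrays without overlap. The 3′ minus 5′ gap, a reading of RNA integrity, differed between the groups by 0.02 for Actb and by 0.08 for Gapdh, where both Npac arrays (0.056 and 0.016) were above both control arrays (-0.027 and -0.069). Its part in the Tfrc values was not tested. The call on Tfrc was lost without any 1 of the 4 arrays, where the difference was -0.24 to -0.22, and with the replicate block. Over all genes, too, fewer were called lower in each of these settings.

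Slc11a2 (DMT1), which moves iron out of the endosome, had 4 probe sets with no shared direction. The brightest read 7.70 and 7.82 in control RNAi and 7.92 and 7.83 in Npac RNAi (0.12, 95% interval -0.07 to 0.30). The others gave -0.11, 0.16 and -0.05, and none of the 4 was called. In 2 of them the groups overlapped, and in the brightest only 0.0088 separated the nearest arrays.

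**Figure D3:**
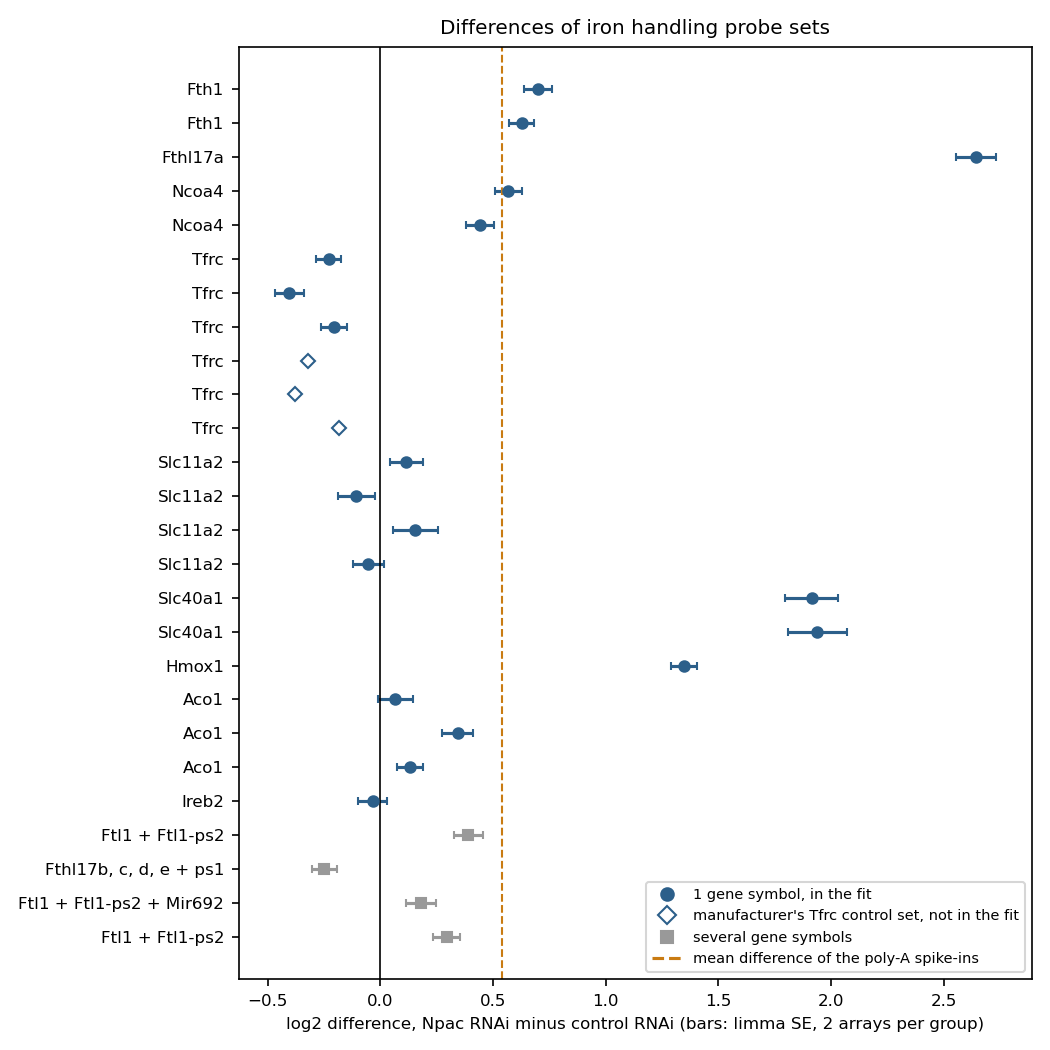
The log2 difference (Npac RNAi minus control RNAi) is plotted for the 22 probe sets (circles with limma's SE, or open diamonds for the Tfrc control sets) and for 4 sets that carry several symbols (grey squares). The dashed line marks the mean difference of the poly-A spike-ins, 0.54. Probe sets of 1 gene lie on the same side of 0 except for those of Slc11a2, and the 6 Tfrc sets lie between -0.40 and -0.18.

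Among 14 further genes listed for iron uptake, 5 were called higher and 2 lower, beside 22.1% and 18.7% of all genes. The ferrireductase family gene Steap2 read 8.62 and 8.49 in control RNAi and 9.95 and 9.97 in Npac RNAi (1.40, SE 0.0626). Steap1 of the same family was 1.77-fold the control level (0.83, SE 0.0602). Slc39a14, a transporter of iron and zinc that is not bound to transferrin, was 1.53-fold, and Slc22a17 and Snx3 were the other 2 called higher, all 3 named after their values were seen. Steap4 (-0.35, SE 0.0714) and the lysosomal channel gene Mcoln1 (-0.22, SE 0.0529) were lower. With Tfrc, the list gave 5 higher and 3 lower of 16. Fewer were called in each direction with any 1 array left out, as over all genes. Spike-in scaling gave 2 higher and 12 lower of the 16, beside 4.98% and 81.9% of all genes.

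Slc40a1, the cell's iron exporter, was read by 2 probe sets that moved by nearly the same amount. The brighter read 7.57 and 7.27 on the control arrays and 9.37 and 9.30 on the Npac arrays (1.91, SE 0.117). The other read 6.60 and 6.24 against 8.34 and 8.37 (1.94, SE 0.132), or 3.83-fold. The control arrays were further apart than the Npac arrays in both sets (SD 0.216 against 0.0518 in the first), and the nearest arrays of the 2 groups still lay 1.72 apart. Leaving out 1 array at a time gave 1.76 to 2.07.

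Of the ferroxidases that work with Slc40a1 in other tissues, none was called higher. Heph was called lower (-0.48, SE 0.101), as was Cp (-0.37, SE 0.0704), and Hephl1, named after its value was seen, was at -0.21 with no call. Heph and Cp were dim, with means over the 4 arrays of 3.91 and 5.46, below the 25th percentile of all genes (5.51). Heph kept its call only without control array 1 and Cp only without Npac array 1. The heme exporter Flvcr1 (0.33, SE 0.0541) and Abcg2 (0.35, SE 0.0535), a transporter of porphyrins and other compounds, were called higher. Their calls were lost without control array 2 and without either Npac array, and both were below 0 with spike-in scaling (-0.20 and -0.19).

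Hmox1 breaks heme down to biliverdin, carbon monoxide and free iron. Its probe set read 7.96 and 7.94 in control RNAi and 9.28 and 9.31 in Npac RNAi, a change from 7.95 ± 0.0151 to 9.30 ± 0.0232 (1.35, SE 0.0468). The groups lay 1.32 apart at the nearest arrays, far more than the replicates differed. The constitutive enzyme Hmox2, also named with its value known, was at 0.13 with no call. Biliverdin reductase A, Blvra (0.27, SE 0.0511), and the heme transporter family gene Flvcr2 (0.65, SE 0.0579) were called higher. Of the 7 genes for heme breakdown and transport, 3 were thus higher and 0 lower, beside 22.1% and 18.7% of all genes. Fewer were higher with any 1 array left out, as over all genes.

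Of 11 measured genes that make heme, 2 were called higher and 1 lower, beside 22.1% and 18.7% of all genes. The list's median was -0.04, the same as that of all genes. The porphyrin transporter gene Abcb6 read 8.85 and 8.95 in control RNAi and 9.60 and 9.58 in Npac RNAi (0.68, SE 0.0567). Alad, an early enzyme of the pathway, was at 0.22 (SE 0.047), and Fech, which inserts iron into the porphyrin ring, was at -0.24 (SE 0.0456). Leaving out any 1 array left Abcb6 as the only call.

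The IRP genes were not called in their brightest probe sets. Ireb2 read 11.82 and 11.73 in control RNAi and 11.74 and 11.74 in Npac RNAi (-0.03, 95% interval -0.18 to 0.11), with overlapping groups. Aco1 read 10.84 and 10.81 against 10.81 and 10.97 in its brightest probe set (0.07, 95% interval -0.13 to 0.26). A second Aco1 probe set read 8.73 and 8.86 against 9.15 and 9.13 (0.34, SE 0.069) and was called higher, and a dimmer set gave 0.13. The Aco1 sets thus disagree, and the call of the second was lost without any 1 array. Of the ubiquitin ligase genes listed with them, Fbxl5, the iron-sensing subunit that degrades IRP2, had no call (-0.03, named after its value was seen). Cul1 was called higher (0.48, SE 0.0484). Cul1 fell below 0 with spike-in scaling (-0.06).

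Genes that build iron-sulfur clusters stood near the array's median. Over the whole array, 22.1% of genes were called higher and 18.7% lower. In mitochondria 3 of 16 were higher and 0 lower (median 0.06), with Isca2 at 0.31 (SE 0.0495) and Lyrm4 at 0.31 (SE 0.0603). In the cytosol 0 of 8 were higher and 1 was lower, Nubp2 at -0.21 (SE 0.0451). In both compartments together, fewer were called with any 1 array left out, as over all genes. Systemic regulators gave 0 higher and 2 lower of 7, Neo1 (-0.27, SE 0.0659) and the second mouse hepcidin gene Hamp2 (-0.30, SE 0.0819). Neo1 lost its call without any 1 array, and Hamp2 kept its call only without Npac array 1. Hamp2 shares much of its sequence with Hamp, so its probe set may bind both.

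Nrf2, encoded by Nfe2l2, is a stress-activated factor that drives glutathione and quinone defence genes, and also Hmox1 and the ferritin genes. Of 16 measured genes listed as its regulators and targets, 14 were called higher and 0 lower, beside 22.1% and 18.7% of all genes. The median log2 difference was 0.46, against -0.04 for all genes. Bright genes were called more often. In a fit of genes at or above the median level, 13 of 13 listed genes were higher, beside 42.1% of all. Their median was 0.62, against 0.06 for all genes in that fit. The list was chosen with earlier results known, and the contrast was not tested. Srxn1, which repairs oxidised peroxiredoxins, read 8.44 and 8.42 in control RNAi and 10.07 and 10.13 in Npac RNAi (1.67, SE 0.0486). Gclm, a subunit of the enzyme that starts glutathione synthesis, read 11.12 and 11.12 against 12.16 and 12.19 (1.06, SE 0.046). Nfe2l2 itself (0.62, SE 0.0552), the quinone reductase Nqo1 (0.89, SE 0.0539) and the 2 genes without a call, Slc7a11 (0.10) and Osgin1 (0.23), are named after their values were seen. With 1 array left out 10 to 12 genes remained higher, while scaling on the spike-ins left 4 higher and 4 lower of 16 (median -0.08), beside 4.98% and 81.9% of all genes (median -0.58).

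**Figure D4:**
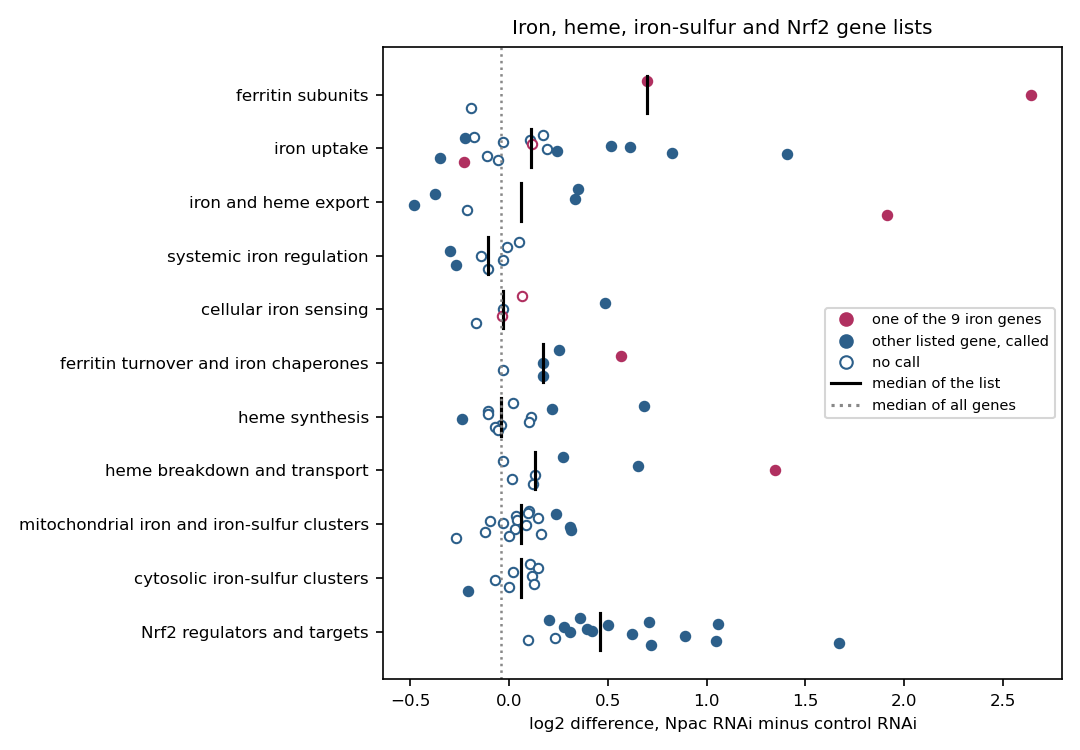
Each point is 1 gene of a pathway list placed by its log2 difference (Npac RNAi minus control RNAi), filled where limma called it, with the 9 measured iron genes described above in red, list medians as black bars and the median of all genes as a dotted line. The Nrf2 list lies wholly to the right of 0 with a median of 0.46, while the heme synthesis and iron-sulfur lists lie around 0.

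Over all these lists, leaving out the 9 genes, 32 of 91 measured genes were called higher and 8 lower, with a median of 0.10. Of all genes, 22.1% were called higher and 18.7% lower. The Nrf2 list held 14 of the 32. With any 1 array left out, fewer were called in each direction, as over all genes. Only 6 were higher and 69 were lower once the arrays were scaled on the spike-ins, where 4.98% of all genes were higher and 81.9% lower. In a fit of genes at or above the median level, 34 of 67 were higher and 6 lower, beside 42.1% and 26.5% of all.

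Markers of other cell types were read beside these genes, because Slc40a1 and Hmox1 are also high in macrophages and erythroid cells handle much iron. Of all genes, 22.1% were called higher and 18.7% lower. Of 10 embryonic stem cell markers, with a summed linear level of 85981 to 86372 in control RNAi and 67775 to 68659 in Npac RNAi, 7 were called lower and 0 higher (4 or 5 lower with 1 array left out). Of 10 macrophage markers 3 were higher and 2 lower, or 2 higher and 0 or 1 lower with 1 array left out (summed linear level 759 to 784 in control RNAi and 1094 to 1110 in Npac RNAi), and 4 of the 10 had means below the 25th percentile of all genes. The 3 higher ones were Mrc1 (1.32, SE 0.114, 2.49-fold), Cd68 (1.02, SE 0.0514, 2.02-fold) and Csf1r (0.23, SE 0.06). The 2 lower ones were Spi1 (-0.41, SE 0.111) and Tyrobp (-0.27, SE 0.0597). The leukocyte markers Ptprc (0.02) and Itgam (-0.04) had no call, nor had Lyz2 (-0.25), Adgre1 (-0.18) and Fcer1g (0.13). All of these are named after their values were seen. Of 7 erythroid markers 0 were higher and 4 lower, and fewer were lower with any 1 array left out (summed level 371 to 395 against 288 to 310). The means of 5 of these 7 lay below the 25th percentile of all genes. Of 10 fibroblast markers 1 was higher and 3 lower, or 1 or 2 lower with 1 array left out (7232 to 7374 against 6396 to 6463). Of 10 trophoblast markers 9 were called higher and 0 lower (7 higher with spike-in scaling), with log2 differences of 0.37 to 2.69. Their summed level went from 6462 to 6563 in control RNAi up to 26238 to 27113 in Npac RNAi. Most of that sum was the keratin gene Krt8, the brightest of the 10 (12.05 and 12.08 against 14.11 and 14.15). The part of these shifts in the iron gene values was not tested, and in bulk RNA more cells of a type and more RNA per cell cannot be told apart.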

How the data were processed

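The authors' deposited values are on a log2 scale, 1 per probe set and array. RMA (background correction, equalisation between arrays and summary per probe set) is named without a version in the submitters' processing notes. The log base was inferred from the values; the sources used here do not give software, probe set definitions or other scaling. RMA removes changes shared by most transcripts. Of 45101 probe sets, 64 manufacturer's controls were kept out of the fits. Symbols of 34741 of 34945 single-symbol probe sets were updated through Entrez identifiers (RefSeq, GRCm38.p6, names only).

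Each gene took its probe set with the highest mean, giving 18193 genes. The test was that of limma 3.58.1 under R 4.3.3, with lmFit and eBayes and group as the single term, and Benjamini-Hochberg adjustment over all genes. Calls were made at an adjusted p under 0.05. A second fit covered 45037 probe sets and gave the SE of probe sets that do not represent their gene. Residual degrees of freedom were 2 and the prior added 2.28, and the number of arrays limits the precision. It was tested on simulated data. No set test was run. Alternatives were other moderation, normalization, filters, probe set choices and thresholds, the replicate block and leaving out each array. The crossed block was added after seeing the data.

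The genes and lists were chosen with earlier results of these data known. Named genes were Glyr1, the 9 measured genes, per list the called genes of smallest adjusted p (at most 2 higher and 2 lower), and the 3 genes nearest to Fthl17a; any other gene was named after its values were seen. Coordinates and sequences come from the RefSeq promoter table, and alignments were made with Biopython 1.88.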

Additional observations from a re-analysis of the deposited data

How the results depend on the processing

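Of 171 recomputed differences of the 9 genes, 152 kept their sign and side of the threshold. With the sign kept, 10 lost a call and 3 gained one, and 6 turned sign. Among those 6, Slc11a2 and Aco1 with spike-in scaling were also called lower. The 6 calls became 5 with any 1 array left out. With spike-in scaling the 5 higher genes became 3 and the 1 lower gene became 4. In the brightest probe sets of the 9 genes, sign changes touched only differences without a call as deposited, those of Slc11a2, Aco1 and Ireb2. Slc11a2 was -0.025 with median centring and -0.42 with spike-in scaling, and Aco1 was -0.073 and -0.47. Omitting 1 array, Aco1 ran from -0.015 to 0.15 and Ireb2 from -0.080 to 0.011. Other Slc11a2 probe sets were -0.38 with spike-in scaling and 0.0021 with cyclic loess, and -0.11 to 0.0067 with 1 array omitted. Other Aco1 sets were -0.20 and -0.41 with spike-in scaling and -0.0079 with median centring, and the second Ncoa4 set was -0.10. Some genes were named for the smallest adjusted p in their list. Of those called higher as deposited, spike-in scaling (a constant shift of -0.54) turned Abcg2 (-0.19), Flvcr1 (-0.20), Cul1 (-0.055), Herc2 (-0.29), Tax1bp1 (-0.37), Alad (-0.32), Blvra (-0.27), Isca2 (-0.23) and Lyrm4 (-0.23). It also turned the sets shared with Ftl1 (-0.15, -0.36 and -0.24). Any other listed gene with a deposited difference above 0 but smaller than this shift turns as well. Herc2 was -0.083 for the probe set with the largest interquartile range; the cause was not tested.

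The 32 pathway genes called higher outside the 9 were 20 with no moderation, 6 with spike-in scaling, 17 at an adjusted p under 0.01, 12 with a minimum fold of 1.5, and 16 to 20 with 1 array left out. The 8 called lower were 3 with no moderation, 25 with median centring and 69 with spike-in scaling. They were 14 with the largest interquartile range, 0 at 0.01 and 0 with the minimum fold. In these settings 5.46%, 39.4%, 81.9%, 24.4%, 5.57% and 2.04% of all genes were called lower, in that order. With any 1 array left out, fewer were called in each direction, as over all genes. With the replicate block the counts were 21 higher and 2 lower, beside 14.9% and 9.15% of all genes. The replicate numbers are not stated to pair the arrays, and deviations of same-numbered arrays correlated at -0.14. With the crossed block the counts were 29 higher and 7 lower, beside 20.6% and 18.0% of all genes.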
